A study of Mus musculus with 12 samples.

Results

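The 7 sirtuins and 3 genes of NAD supply and use were followed across 4 groups of mouse pluripotent cells. The members were taken by name: Sirt1, Sirt2, Sirt3, Sirt4, Sirt5, Sirt6, Sirt7, Nampt, Nmnat1 and Parp1. All 10 were found among the 23136 loci with a gene name, and all 10 passed the filter on low values (a named locus had to reach 1 FPKM in 3 or more of the 12 libraries). Polyadenylated RNA was sequenced in 3 libraries per group. The wild type gave embryonic stem cells (ESC) and epiblast-like cells (EpiLC). ESC lacking Sirt1 were measured without further change (Sirt1KO) and after an Otx2 knockdown (Sirt1KO Otx2KD). Every group carries the strain label C57 Bl/6J. The 3 ESC groups grew on gelatin in serum-free medium with LIF, PD0325901 at 1 uM (which blocks MEK) and CHIR99021 at 3 uM (which blocks GSK3), a medium that holds the naive, preimplantation-like state. EpiLC, a postimplantation-like state, took 48 h on fibronectin in Activin A at 20 ng/ml, Fgf2 at 12 ng/ml and 1% KOSR, a replacement for serum. State and medium therefore cannot be told apart. The Sirt1 deletion is shared by Sirt1KO and Sirt1KO Otx2KD. No group is labelled as a control knockdown, and none has the Otx2 knockdown in the wild type. Loss of Otx2 therefore cannot be told apart from the handling of the knockdown or from differences between cultures. The labels give neither the deleted part of Sirt1, nor how Otx2 was knocked down, nor how many clones were used. They do not say that replicates are separate cultures, so each p-value measures only the spread between these libraries, which may be technical.

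Sirtuins remove acetyl and other acyl groups from proteins and use up NAD in each reaction, so their activity depends on the supply of this cofactor. In mammals Sirt1, Sirt6 and Sirt7 are mainly nuclear, Sirt2 is mainly cytoplasmic, and Sirt3, Sirt4 and Sirt5 are mitochondrial. Nicotinamide, which the reaction releases, is returned to NAD by Nampt and then by the Nmnat enzymes, while Parp1 consumes NAD when it builds poly(ADP-ribose) chains at DNA breaks. Sirt1 is known in ESC for its action on p53 and on pluripotency factors, and the study's title names Oct4 as a substrate.

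The labels were first checked against defining markers. The summed level of 10 naive markers lay at 1722 to 1776 FPKM in wild-type ESC, 402 to 413 in EpiLC, 1249 to 1449 in Sirt1KO, with 1790 to 1824 in Sirt1KO Otx2KD. Single naive markers did not all follow the sum: in Sirt1KO 8 of 10 had lower means than in wild-type ESC, while Tfcp2l1 (150 against 84.1 FPKM) and Klf4 (108.4 against 54.4 FPKM) had higher ones. Relative to wild-type ESC, Sirt1KO Otx2KD had higher means for 6 of the 10 and lower ones for 4 (Esrrb, Klf4, Klf5 and Dppa3). The 5 EpiLC markers summed to 738 to 754 FPKM in EpiLC, 29.1 to 32.0 in wild-type ESC, 145 to 218 in Sirt1KO, with 37.4 to 40.4 in Sirt1KO Otx2KD. None of these 15 markers was at 0 in a library. Oct4 (Pou5f1) was at 592 to 670 FPKM in all 12 libraries. Otx2 was at 7.38 ± 0.458 FPKM (SD, n = 3) in wild-type ESC, 100.2 ± 3.45 in EpiLC, 27.0 ± 6.36 in Sirt1KO, with 6.07 ± 0.401 in Sirt1KO Otx2KD. Markers of fibroblasts and feeder cells moved between groups too, and this stands beside every comparison below. Their 14 genes, none of them at 0, summed to 520 to 573 FPKM in wild-type ESC, 353 to 369 in EpiLC, 267 to 293 in Sirt1KO, with 584 to 596 in Sirt1KO Otx2KD. Against wild-type ESC the mean was lower for 10 of the 14 in EpiLC (higher for Dcn, Thy1, S100a4 and Twist1), for all 14 in Sirt1KO, and for 3 in Sirt1KO Otx2KD. Against Sirt1KO, Sirt1KO Otx2KD had higher means for 13, and a lower one for Vim. Fn1 and Vim, with means of 220 and 171 FPKM, held most of the sum in wild-type ESC. The sum therefore hides larger differences of some other markers. Between Sirt1KO and Sirt1KO Otx2KD, Col1a1 went from 1.81 to 50.5 FPKM, Col3a1 from 2.10 to 75.2 and Postn from 0.313 to 29.4. Their wild-type ESC means were 38.2, 36.3 and 6.72 FPKM. Fn1 (161 to 218 FPKM) and Twist1 (1.36 to 2.25) rose less. In bulk RNA, fewer cells of a type and less RNA per cell cannot be told apart, and the part of such cells in the results was not tested. Whole chromosomes also differed from wild-type ESC: the 680 tested loci of chromosome 8 had median log2 fold changes of 0.40 (EpiLC), 0.46 (Sirt1KO) and 0.36 (Sirt1KO Otx2KD). For the 1039 loci of chromosome 11, where the Sirt7 locus lies, the medians were -0.46, -0.49 and -0.39. Among the other groups these medians were small. On chromosomes 8 and 11 they were -0.05 and 0.02 for EpiLC minus Sirt1KO, and 0.01 and -0.07 for EpiLC minus Sirt1KO Otx2KD. For Sirt1KO Otx2KD minus Sirt1KO they were -0.10 and 0.07. The shift thus sets wild-type ESC, the shared reference, apart from the other groups, and its source was not tested. The Y-linked gene Eif2s3y, a translation factor subunit, was at 28.9 FPKM in wild-type ESC, 4.52 in EpiLC, 0.0961 in Sirt1KO, with 0.417 in Sirt1KO Otx2KD. The other 9 members lie on chromosomes whose medians stayed between -0.12 and 0.10 in the 4 comparisons.

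Values are FPKM as deposited, a scale that allows levels of different genes to be compared per length of transcript. Depth relative to wild-type ESC replicate 1, read from the smallest steps of low values, ranged from 0.767 to 1.33, and no read counts are given. Fold changes are differences of log2(FPKM + 1) ± SE, which understate the change of low genes, and were tested with limma over 12320 named loci.

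The promoters of 3 genes are shown: that of Sirt1, the deleted gene, and those of Sirt6 and Parp1, which were lower in Sirt1KO and higher again after the Otx2 knockdown. The Sirt7 locus followed the same course, but its values hold a second gene, so its promoter is not printed. Each window runs from 250 bases before to 50 bases after a transcription start, 5′ to 3′ on the gene's strand, from RefSeq on GRCm38.p6, which is not the mm9 build of the deposited files. Capitals mark the E-box CACGTG, the site of Myc and Clock family factors, which reads the same on both strands. The windows are chr10:63338986-63339285 (minus strand) for Sirt1, chr10:81627517-81627816 (minus strand) for the upstream of 2 Sirt6 starts, and chr1:180568641-180568940 (plus strand) for Parp1.
Sirt1: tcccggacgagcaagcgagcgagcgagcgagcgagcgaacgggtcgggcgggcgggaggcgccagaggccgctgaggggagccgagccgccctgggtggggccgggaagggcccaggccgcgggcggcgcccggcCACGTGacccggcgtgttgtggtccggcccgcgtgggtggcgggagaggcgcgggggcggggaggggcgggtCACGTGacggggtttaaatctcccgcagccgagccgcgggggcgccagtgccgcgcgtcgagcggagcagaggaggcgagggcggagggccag
Sirt6: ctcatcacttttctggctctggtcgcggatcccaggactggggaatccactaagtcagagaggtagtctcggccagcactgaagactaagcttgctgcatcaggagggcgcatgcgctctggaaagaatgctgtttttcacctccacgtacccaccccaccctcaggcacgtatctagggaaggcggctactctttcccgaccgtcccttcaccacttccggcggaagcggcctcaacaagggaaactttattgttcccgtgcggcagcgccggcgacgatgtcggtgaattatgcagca
Parp1: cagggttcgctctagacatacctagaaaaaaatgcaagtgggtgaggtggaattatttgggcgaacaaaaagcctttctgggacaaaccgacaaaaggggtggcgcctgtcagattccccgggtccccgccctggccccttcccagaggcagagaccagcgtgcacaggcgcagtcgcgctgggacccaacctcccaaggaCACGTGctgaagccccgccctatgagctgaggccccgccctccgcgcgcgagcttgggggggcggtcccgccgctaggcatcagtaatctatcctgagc
Sirt1 held 2 E-boxes, which begin 115 and 43 bases before the start, and Parp1 held 1, which begins 49 bases before it. Of the 13 windows of the 10 members, only these Sirt1 and Parp1 windows held an E-box, and the Sirt7 window held none. The E-box was present in 7.15% of all 32851 promoter windows. TAATCC, the motif of Otx and related homeodomains, was searched on both strands and does not overlap the E-box motif. It was present in 7.06% of windows and in none of the members' 13 windows. All 13 windows held more CpG dinucleotides than the median of 7 over all windows, from 15 in Sirt4 and Sirt5 to 47 in Sirt1. Nampt had 36, and the printed windows of Sirt6 and Parp1 had 20 each. A match is a description of these letters and not a bound site.

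**Figure D1:**
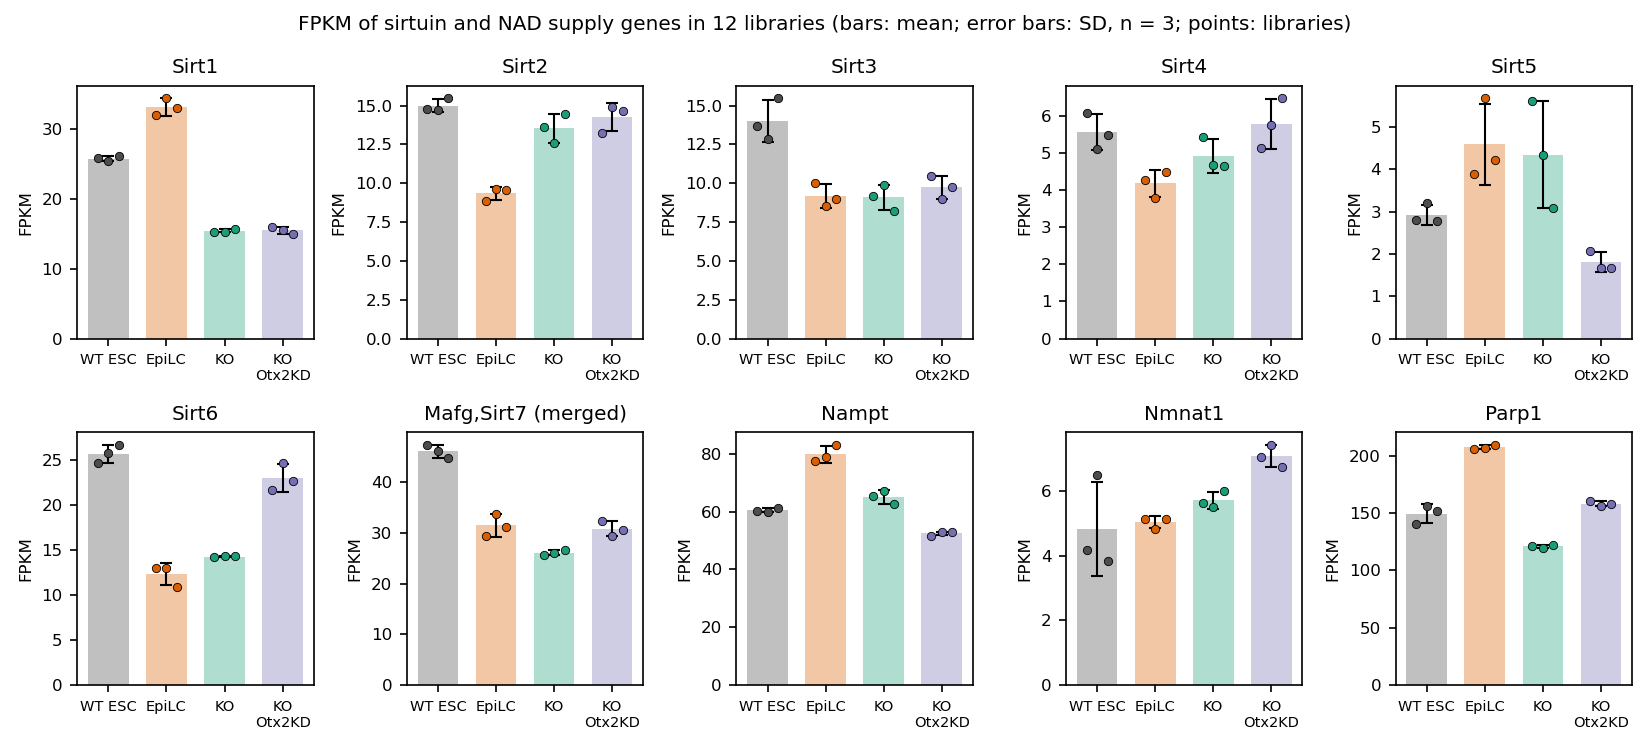
FPKM of each member (vertical axes, each starting at 0) in wild-type ESC, EpiLC, Sirt1KO (KO) and Sirt1KO Otx2KD (KO Otx2KD); bars are means, error bars SD of n = 3, points single libraries. Sirt1 keeps 15.0 to 16.0 FPKM in all 6 libraries with the deletion, and Sirt6 stands at 21.7 to 24.7 FPKM in Sirt1KO Otx2KD against 14.2 to 14.4 in Sirt1KO.

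Among the nuclear sirtuins, Sirt1 (chr10:62781753-62801783, mm9) was examined first, since it is the targeted gene. Its level was 25.8, 25.4 and 26.2 FPKM in wild-type ESC, then 32.0, 34.5 and 33.1 in EpiLC, 15.3, 15.3 and 15.7 in Sirt1KO, with 16.0, 15.6 and 15.0 in Sirt1KO Otx2KD. The libraries of wild-type ESC, EpiLC and the groups with the deletion did not overlap, while the groups with the deletion overlapped each other. Sirt1 fell in Sirt1KO to 59.9% of the wild-type mean (log2 -0.70 ± 0.04, limma, adjusted p = 5.76e-09). The value covers the whole gene, so transcript from outside the deleted part would be counted, and this transcript level does not measure Sirt1 protein. Sirt1KO Otx2KD had no difference from Sirt1KO that passed (log2 0.01, 95% interval -0.08 to 0.10, limma, adjusted p = 0.882). In EpiLC, Sirt1 rose 1.29-fold over wild-type ESC (log2 0.35 ± 0.04, limma, adjusted p = 4.58e-06). The order of levels was therefore EpiLC, wild-type ESC, and then both groups with the deletion.

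Sirt6, a chromatin deacetylase known for its part in genome stability and glucose metabolism (chr10:81084512-81090353), was about as abundant as Sirt1 in wild-type ESC. It was at 24.7, 25.8 and 26.7 FPKM in wild-type ESC, then 13.0, 13.0 and 10.9 in EpiLC, 14.2, 14.4 and 14.3 in Sirt1KO, with 21.7, 24.7 and 22.7 in Sirt1KO Otx2KD. Wild-type ESC and Sirt1KO Otx2KD overlapped, and both lay above every library of EpiLC and Sirt1KO. Sirt6 fell in EpiLC to 47.9% of wild-type ESC (log2 -1.01 ± 0.07, limma, adjusted p = 6.86e-09), which was the largest fold change of a member in that comparison. It fell to 55.6% in Sirt1KO (log2 -0.80 ± 0.07, limma, adjusted p = 1.34e-07) and was 1.61-fold higher in Sirt1KO Otx2KD than in Sirt1KO (log2 0.65 ± 0.07, limma, adjusted p = 1.56e-06). The difference between Sirt1KO Otx2KD and wild-type ESC was not called (log2 -0.15, 95% interval -0.30 to -0.01, limma, adjusted p = 0.0663). That call was close to the threshold and passed without Sirt1KO Otx2KD replicate 2 (log2 -0.20, limma, adjusted p = 0.0305). Removing chromosome medians also let it pass (log2 -0.17, limma, adjusted p = 0.0418), as did a fit of only these 2 groups (limma, adjusted p = 0.0499). EpiLC lay below Sirt1KO (log2 -0.20 ± 0.07, limma, adjusted p = 0.0145), so the order was wild-type ESC and Sirt1KO Otx2KD, Sirt1KO, EpiLC.

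Sirt7, a nucleolar deacetylase linked to ribosomal RNA transcription, could not be read alone. The deposited locus (chr11:120479686-120495917) merges it with its neighbour Mafg, a small Maf transcription factor, so its values hold both genes. The merged locus was at 47.4, 46.1 and 44.7 FPKM in wild-type ESC, then 29.4, 33.8 and 31.2 in EpiLC, 25.7, 26.0 and 26.7 in Sirt1KO, with 32.3, 29.4 and 30.6 in Sirt1KO Otx2KD. Wild-type ESC lay above all other libraries, Sirt1KO below all others, and EpiLC and Sirt1KO Otx2KD overlapped. The locus fell in EpiLC (log2 -0.54 ± 0.05, limma, adjusted p = 3.85e-07), a change close to the chromosome 11 median of -0.46. With chromosome medians removed, that fall was log2 -0.06 and no longer passed (limma, adjusted p = 0.305). In Sirt1KO it fell by more than the chromosome median of -0.49 (log2 -0.79 ± 0.05, limma, adjusted p = 1.15e-08) and still passed with chromosome medians removed (log2 -0.31, limma, adjusted p = 0.000205). It rose with the Otx2 knockdown (log2 0.23 ± 0.05, limma, adjusted p = 0.0017), which was log2 0.15 with chromosome medians removed (limma, adjusted p = 0.0294). Against wild-type ESC, Sirt1KO Otx2KD was lower (log2 -0.57 ± 0.05, limma, adjusted p = 7.61e-07), or log2 -0.16 with chromosome medians removed (limma, adjusted p = 0.0226).

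Sirt2, the mainly cytoplasmic member, known as a tubulin deacetylase (chr7:29551771-29573684), set EpiLC apart from the other groups. It was at 14.8, 14.7 and 15.5 FPKM in wild-type ESC, then 8.87, 9.60 and 9.59 in EpiLC, 13.6, 12.6 and 14.5 in Sirt1KO, with 13.3, 14.9 and 14.7 in Sirt1KO Otx2KD. EpiLC lay below every other library, whereas Sirt1KO Otx2KD overlapped both of the other ESC groups. Sirt2 fell in EpiLC to 62.4% of wild-type ESC (log2 -0.63 ± 0.06, limma, adjusted p = 4.65e-07) and was also lower there than in Sirt1KO (log2 -0.49 ± 0.06, limma, adjusted p = 8.22e-06). Sirt1KO lay 0.14 below wild-type ESC on the log2 scale, with no overlap of libraries, but did not pass (95% interval -0.27 to -0.00495, limma, adjusted p = 0.0647). It passed without Sirt1KO replicate 3 (log2 -0.18, limma, adjusted p = 0.0291). The deposited Sirt2 locus overlaps that of the predicted gene Gm19897, and the labels do not say whether strand was used in counting.

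The mitochondrial sirtuins did not share a pattern. Sirt3, the main deacetylase of the mitochondrial matrix (chr7:148043296-148068208), was at 13.7, 12.9 and 15.5 FPKM in wild-type ESC, then 10.03, 8.53 and 8.96 in EpiLC, 9.17, 9.87 and 8.23 in Sirt1KO, with 10.4, 9.01 and 9.74 in Sirt1KO Otx2KD. Wild-type ESC lay above all 9 other libraries, which overlapped among themselves. Sirt3 fell by similar amounts against wild-type ESC: log2 -0.56 ± 0.08 for EpiLC (limma, adjusted p = 3.21e-05), -0.57 ± 0.08 for Sirt1KO (3.77e-05) and -0.48 ± 0.08 for Sirt1KO Otx2KD (0.000263). No difference among those 3 groups passed, and Sirt1KO Otx2KD minus Sirt1KO was log2 0.09 (95% interval -0.09 to 0.27, limma, adjusted p = 0.370). The Sirt3 locus overlaps the deposited locus of Ric8, its neighbour.

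Sirt4, a mitochondrial lipoamidase and ADP-ribosyltransferase that restrains glutamate dehydrogenase (chr5:115928019-115934493), varied least among the mitochondrial members. Its level was 6.09, 5.12 and 5.49 FPKM in wild-type ESC, then 4.29, 3.79 and 4.50 in EpiLC, 5.45, 4.68 and 4.65 in Sirt1KO, with 5.14, 5.76 and 6.49 in Sirt1KO Otx2KD. EpiLC lay below the other groups, which overlapped one another. Sirt4 fell in EpiLC against wild-type ESC (log2 -0.34 ± 0.09, limma, adjusted p = 0.00424) and was lower there than in Sirt1KO Otx2KD (log2 -0.39 ± 0.09, limma, adjusted p = 0.00169), while EpiLC minus Sirt1KO did not pass (log2 -0.19, limma, adjusted p = 0.0794). The difference of Sirt1KO Otx2KD from Sirt1KO (log2 0.20 ± 0.09, limma, adjusted p = 0.0802) passed without Sirt1KO replicate 1 (log2 0.26, limma, adjusted p = 0.0378) and without Sirt1KO Otx2KD replicate 1 (log2 0.27, limma, adjusted p = 0.0326).

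Sirt5, which removes succinyl, malonyl and glutaryl groups (chr13:43466085-43490572), was the lowest sirtuin with a locus of its own in wild-type ESC. Unlike Sirt3 and Sirt4, Sirt5 was higher in EpiLC. It was at 2.81, 3.20 and 2.77 FPKM in wild-type ESC, then 3.88, 5.69 and 4.23 in EpiLC, 5.62, 4.35 and 3.09 in Sirt1KO, with 2.08, 1.67 and 1.66 in Sirt1KO Otx2KD. The Sirt1KO libraries were spread widely and replicate 3 lay within the wild-type range, while Sirt1KO Otx2KD lay below every other library. Sirt5 rose in EpiLC (log2 0.50 ± 0.16, limma, adjusted p = 0.0103), a call lost without EpiLC replicate 2 (log2 0.36, limma, adjusted p = 0.0550). Its rise in Sirt1KO (log2 0.42 ± 0.16, limma, adjusted p = 0.0294) was lost when any of 4 libraries was left out, most of all without Sirt1KO replicate 1 (log2 0.25, limma, adjusted p = 0.143). The other losses, without Sirt1KO replicate 2 or without wild-type ESC replicate 1 or 3, had limma adjusted p values of 0.0711, 0.0749 and 0.0799. It was also lost with chromosome medians removed (limma, adjusted p = 0.0844) and with unnamed loci included (limma, adjusted p = 0.0633). EpiLC and Sirt1KO did not differ beyond their spread (limma, adjusted p = 0.667). With the Otx2 knockdown Sirt5 fell to 41.4% of its level in Sirt1KO (log2 -0.91 ± 0.16, limma, adjusted p = 0.000196), and this call passed under every alternative that tested it. Against wild-type ESC it also fell (log2 -0.49 ± 0.16, limma, adjusted p = 0.0171), but not without wild-type ESC replicate 2 (0.0595) or Sirt1KO Otx2KD replicate 2 (0.0538) or 3 (0.0550), as limma adjusted p values.

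**Figure D2:**
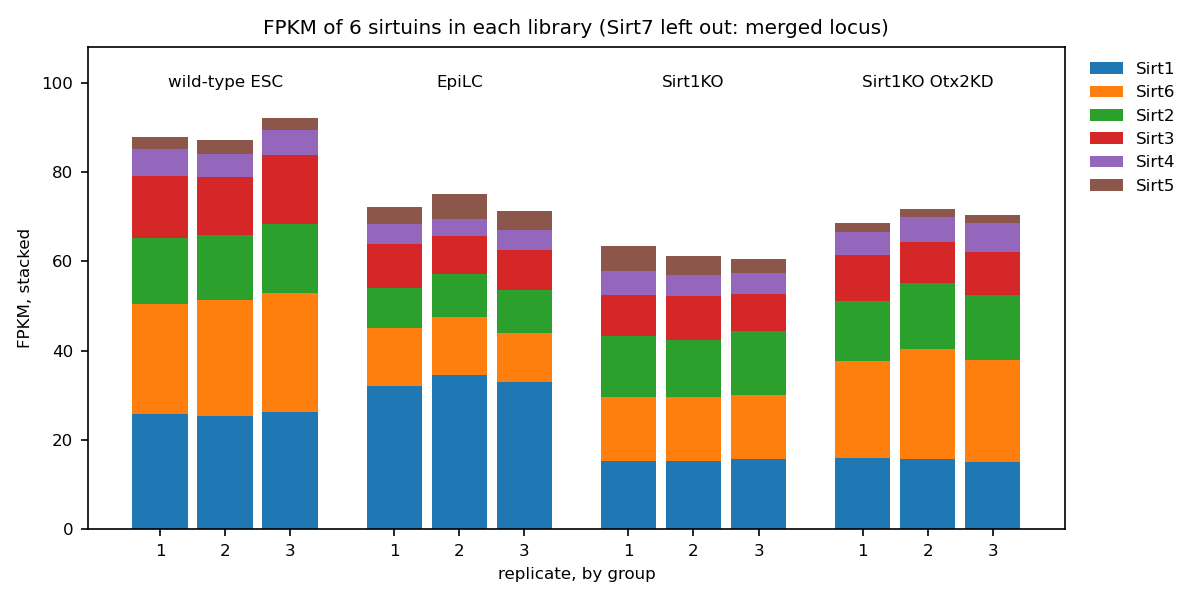
FPKM of 6 sirtuins stacked for each of the 12 libraries, by group and replicate, on an axis from 0; the merged Sirt7 locus is left out. Sirt1 makes up 44.4% to 46.4% of the stack in EpiLC and 21.4% to 26.0% in the libraries with the deletion.

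The composition of the family followed from these levels, and is given as a description with no test. The 6 sirtuins with a locus of their own summed to 89.1 ± 2.71 FPKM (SD, n = 3) in wild-type ESC, 72.8 ± 2.04 in EpiLC, 61.7 ± 1.56 in Sirt1KO, with 70.2 ± 1.51 in Sirt1KO Otx2KD. Wild-type ESC had the highest sum in each of its libraries (87.1 to 92.2 FPKM) and Sirt1KO the lowest (60.4 to 63.4). These sums include Sirt1, the deleted gene, so they do not rank the groups by the other sirtuins. Of those, Sirt2 (9.35 against 13.5 FPKM), Sirt4 (4.19 against 4.93) and Sirt6 (12.3 against 14.3) had lower means in EpiLC than in Sirt1KO. Sirt3 and Sirt5 had slightly higher ones. Each share depends on all genes of the sum. Sirt1 and Sirt6 held 29.0 ± 0.493% and 28.9 ± 0.805% of the sum in wild-type ESC. In EpiLC Sirt1 held 45.6 ± 1.05% and Sirt6 16.9 ± 1.43%, so the total was lower although Sirt1 itself was higher. In Sirt1KO the shares were 25.1 ± 0.881% for Sirt1, 23.2 ± 0.650% for Sirt6 and 22.0 ± 1.74% for Sirt2. In Sirt1KO Otx2KD Sirt6 held the largest share of these 6 sirtuins, with 32.8 ± 1.505%, ahead of Sirt1 with 22.2 ± 1.04%.

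Nampt, the rate-limiting enzyme of NAD salvage (chr12:33505200-33538234), differed between all 4 groups. It was at 60.2, 60.0 and 61.3 FPKM in wild-type ESC, then 77.3, 78.8 and 83.2 in EpiLC, 65.4, 67.1 and 62.6 in Sirt1KO, with 51.7, 52.8 and 52.8 in Sirt1KO Otx2KD. The ranges of the 4 groups did not overlap, in the order EpiLC, Sirt1KO, wild-type ESC, Sirt1KO Otx2KD. Nampt rose 1.32-fold in EpiLC (log2 0.39 ± 0.04, limma, adjusted p = 3.31e-07). Its rise in Sirt1KO was small (1.08-fold, log2 0.10 ± 0.04, limma, adjusted p = 0.0275) and was lost without wild-type ESC replicate 1 (limma, adjusted p = 0.0592) or 2 (0.0717). It was lost as well without Sirt1KO replicate 1 (0.0591) or 2 (0.118), and when only these 2 groups were fitted (limma, adjusted p = 0.0512). With the Otx2 knockdown Nampt fell below Sirt1KO (log2 -0.30 ± 0.04, limma, adjusted p = 8.9e-06) and below wild-type ESC (log2 -0.20 ± 0.04, limma, adjusted p = 0.000429). The deposited Nampt locus overlaps that of Gdap10.

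Nmnat1, the nuclear enzyme that completes NAD synthesis (chr4:148841687-148859365), was low and noisy in wild-type ESC. Its level was 4.18, 6.48 and 3.82 FPKM there, 5.15, 4.82 and 5.14 in EpiLC, 5.64, 5.50 and 6.01 in Sirt1KO, with 7.06, 7.43 and 6.75 in Sirt1KO Otx2KD. Wild-type ESC replicate 2 exceeded all libraries of EpiLC and Sirt1KO, and Sirt1KO Otx2KD lay above all other libraries. Nmnat1 rose 1.47-fold in Sirt1KO Otx2KD over wild-type ESC (log2 0.50 ± 0.12, limma, adjusted p = 0.00383). The step from Sirt1KO to Sirt1KO Otx2KD did not pass (log2 0.27 ± 0.12, limma, adjusted p = 0.0760), except in a fit of only these 2 groups (log2 0.27 ± 0.07, limma, adjusted p = 0.00758). The SE of the main fit is drawn from all groups, so it also holds the wide spread of wild-type ESC (SD 1.44 FPKM). EpiLC (log2 0.08, 95% interval -0.19 to 0.35, limma, adjusted p = 0.581) and Sirt1KO (log2 0.23, 95% interval -0.04 to 0.50, limma, adjusted p = 0.117) did not pass against wild-type ESC. Without wild-type ESC replicate 2 both did (log2 0.27 and 0.43, limma, adjusted p = 0.00532 and 0.000284). The deposited Nmnat1 locus overlaps no other, but in RefSeq on GRCm38.p6 the gene overlaps Tmem274 and Lzic. Whether its values hold reads of these genes was not tested.

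Parp1, which consumes NAD in the response to DNA breaks (chr1:182499106-182531385), was the most abundant member. It was at 140.5, 156.0 and 152.3 FPKM in wild-type ESC, then 206, 207 and 210 in EpiLC, 122, 120 and 122 in Sirt1KO, with 160.2, 156.5 and 158.3 in Sirt1KO Otx2KD. EpiLC lay above and Sirt1KO below all other libraries, while Sirt1KO Otx2KD lay just above the wild-type range. Parp1 rose 1.39-fold in EpiLC (log2 0.47 ± 0.04, limma, adjusted p = 2.74e-08) and fell to 81.0% of wild-type ESC in Sirt1KO (log2 -0.30 ± 0.04, limma, adjusted p = 4.97e-06). It was 1.31-fold higher in Sirt1KO Otx2KD than in Sirt1KO (log2 0.38 ± 0.04, limma, adjusted p = 6.07e-07). Against wild-type ESC, Sirt1KO Otx2KD did not pass (log2 0.08, 95% interval 0.01 to 0.16, limma, adjusted p = 0.0655) unless wild-type ESC replicate 2 was left out (log2 0.11, limma, adjusted p = 0.0212).

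**Figure D3:**
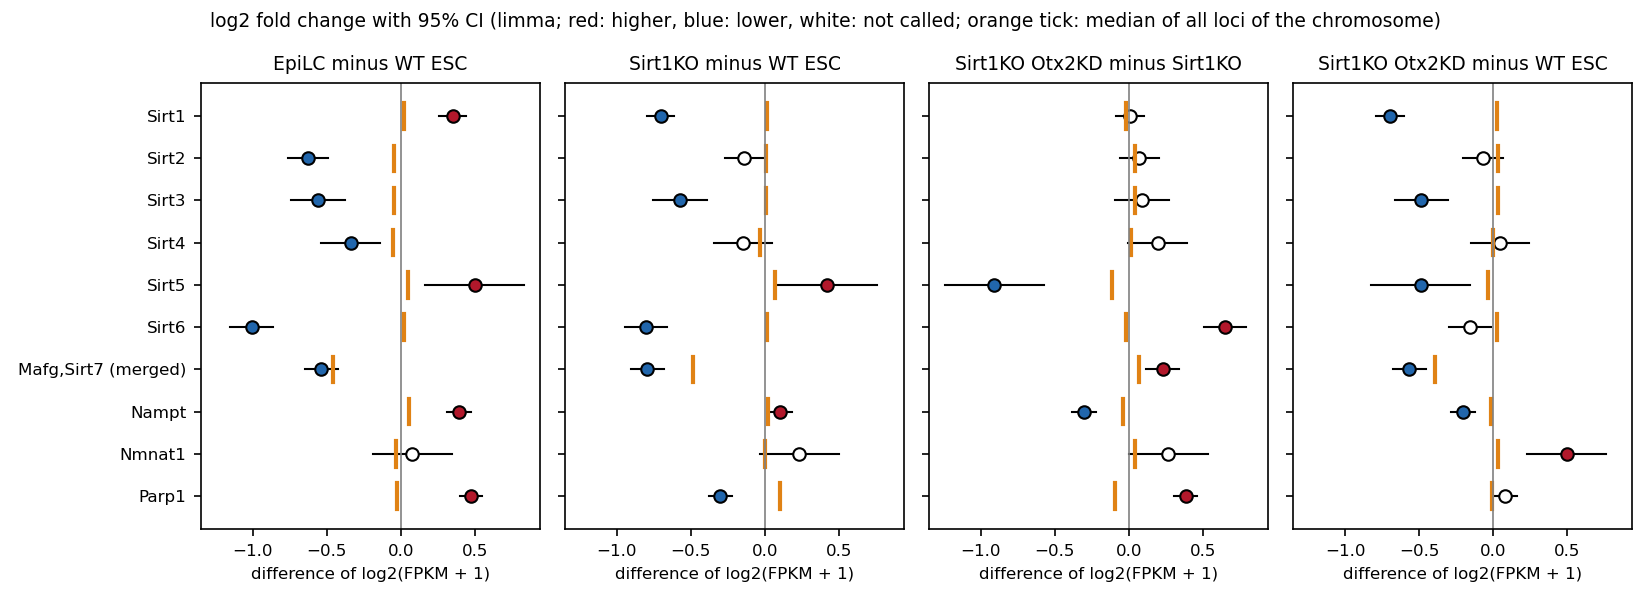
Difference of log2(FPKM + 1) for the 10 members in 4 comparisons, with 95% confidence intervals from limma; red and blue points passed the test as higher and lower, white points did not, and orange ticks give the median of all tested loci of the member's chromosome. The merged Sirt7 locus lies near its tick in EpiLC (-0.54 against -0.46), while Sirt6 lies far from its own in both EpiLC and Sirt1KO.

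By comparison, 9 members passed the test in EpiLC against wild-type ESC, of which 4 rose (Sirt1, Sirt5, Nampt and Parp1) and 5 fell (Sirt2, Sirt3, Sirt4, Sirt6 and the merged Sirt7 locus). Of all 12320 loci, 74.6% passed in this comparison, 35.8% upward and 38.8% downward. Groups did not overlap for 9 members and 76.8% of all loci. In Sirt1KO, 2 rose (Sirt5 and Nampt), 5 fell (Sirt1, Sirt3, Sirt6, the Sirt7 locus and Parp1) and 3 did not pass, where 65.0% of all loci were called, 32.4% up and 32.7% down. Groups did not overlap for 7 members and 68.5% of all loci. For Sirt1KO Otx2KD against Sirt1KO, 3 rose (Sirt6, the Sirt7 locus and Parp1), 2 fell (Sirt5 and Nampt) and 5 did not pass, where 62.6% of all loci were called, 31.1% up and 31.5% down. Groups did not overlap for 6 members and 67.2% of all loci. Against wild-type ESC, Sirt1KO Otx2KD had 1 rise (Nmnat1), 5 falls (Sirt1, Sirt3, Sirt5, the Sirt7 locus and Nampt) and 4 members that did not pass, where 53.9% of all loci were called, 27.1% up and 26.8% down. Groups did not overlap for 7 members and 61.3% of all loci. EpiLC and Sirt1KO, set directly against each other, differed in 6 members and 69.1% of all loci, and EpiLC and Sirt1KO Otx2KD in 8 members and 74.3%. The median log2 fold change of the 10 members was -0.13, -0.22, 0.14 and -0.18 in these comparisons, where the median of all loci was -0.02, 0.01, -0.01 and -0.00. The members' counts are close to these shares of all loci, so a call by itself is no mark of a member. Sirt1 is counted although it is the deleted gene, so its falls in both groups with the deletion follow the design. The comparisons with wild-type ESC share its 3 libraries, and all comparisons that include Sirt1KO share those of Sirt1KO. The Sirt1KO libraries enter Sirt1KO minus wild-type ESC and Sirt1KO Otx2KD minus Sirt1KO with opposite sign. A fall in the first and a rise in the second are therefore not independent.

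A list of 23 other genes of NAD synthesis and salvage was followed beside the members, of which 14 passed the level filter. In EpiLC 10 rose and 3 fell, so 13 of 14 were called where 74.6% of all loci were (median log2 0.20, all loci -0.02). Naprt, which starts NAD synthesis from nicotinic acid, went from 2.50 ± 0.358 to 11.8 ± 0.669 FPKM (log2 1.87 ± 0.15), a rise that passed by limma. Nt5e, an ectoenzyme that cleaves nucleotides, is among the 10 but passed the level filter only through EpiLC, so it had to differ. Its EpiLC level was 6.98 ± 0.327 FPKM, against 0.205 ± 0.0803 in wild-type ESC. Nmrk1, the nicotinamide riboside kinase, fell from 10.1 ± 0.840 to 3.86 ± 0.378 FPKM, and Nnmt, which methylates nicotinamide and so removes it from salvage, from 5.47 ± 0.729 to 0.598 ± 0.225. Among the genes below the filter were Ido1, Kmo, Kynu and Haao of the route from tryptophan. In Sirt1KO 4 rose and 6 fell, 10 of 14 called against 65.0% of all loci (median log2 -0.07, all loci 0.01). There the NAD kinase Nadk fell from 51.9 ± 0.840 to 43.7 ± 1.03 FPKM, its mitochondrial counterpart Nadk2 from 24.7 ± 0.703 to 20.0 ± 0.212, and Nnmt to 0.785 ± 0.338. Purine nucleoside phosphorylase, Pnp, rose from 12.4 ± 0.764 to 21.8 ± 1.45 FPKM, a level that is uncertain because its neighbour Pnp2 is a near-identical copy.

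After the Otx2 knockdown, 4 of these 14 genes rose and 5 fell against Sirt1KO, 9 called in all where 62.6% of all loci were (median log2 -0.07, all loci -0.01). Nmrk1 rose from 8.42 ± 0.337 to 15.6 ± 0.646 FPKM (log2 0.82 ± 0.07), the neuronal-type enzyme Nmnat2 from 5.42 ± 0.156 to 8.27 ± 0.110, and Nnmt to 3.33 ± 0.804, while Pnp fell to 15.6 ± 1.13. Against wild-type ESC, 3 rose and 3 fell, where 53.9% of all loci were called, with Qprt, which makes NAD precursor from quinolinate, at 2.88 ± 0.656 against 8.21 ± 0.738 FPKM (log2 -1.26 ± 0.11). Nnt, the mitochondrial transhydrogenase that couples NADH to NADPH, did not pass in any of the 4 comparisons and stood between 10.7 and 11.5 FPKM in the group means. With chromosome medians removed Nnt was lower in Sirt1KO than in wild-type ESC (log2 -0.18, limma, adjusted p = 0.0172) and higher with the knockdown than without (log2 0.16, limma, adjusted p = 0.0348). The strain of the labels is known for a deletion within this gene, which a value over the whole locus does not show.

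**Figure D4:**
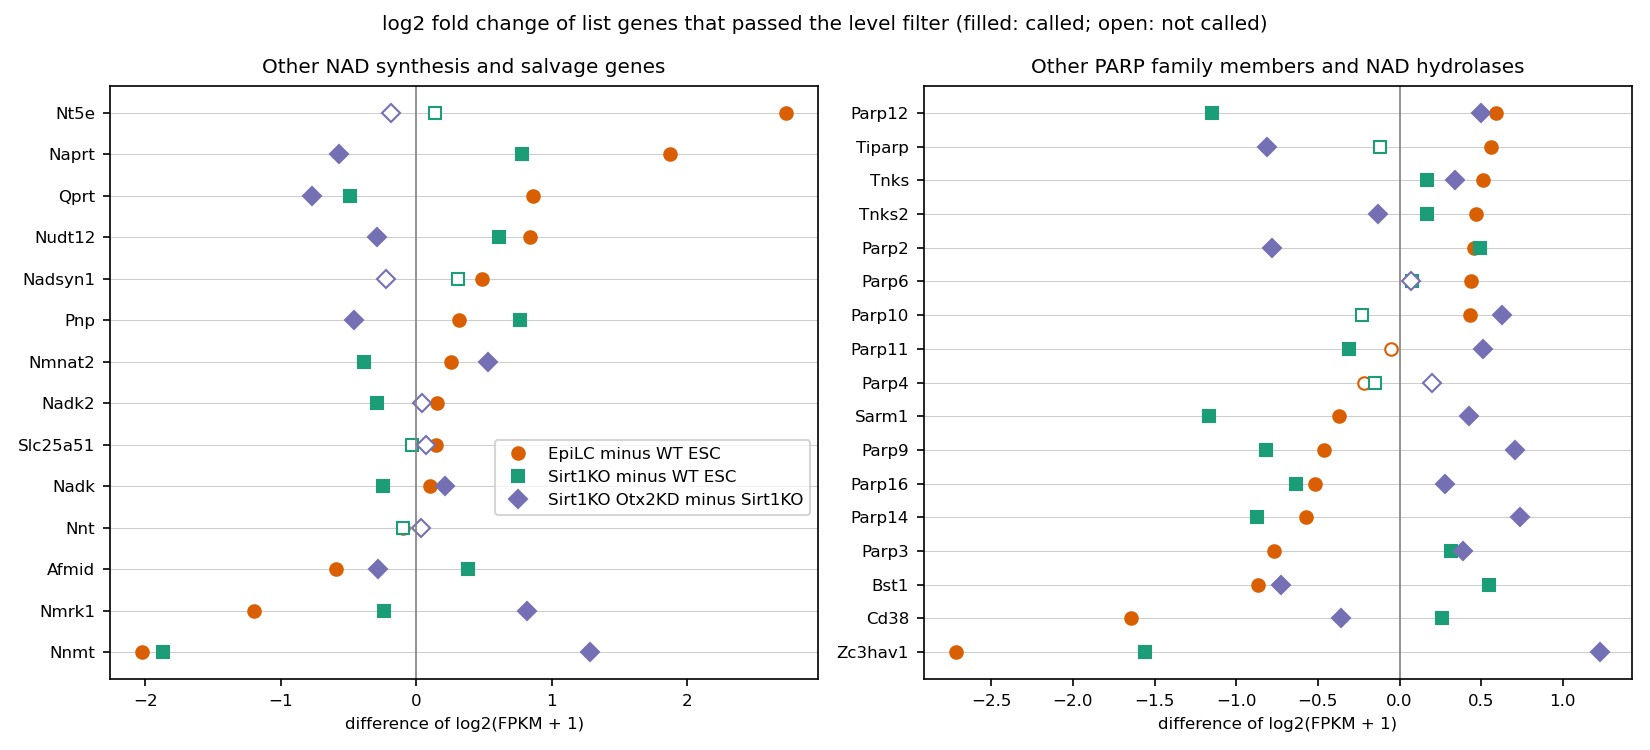
Difference of log2(FPKM + 1) for the 14 genes of NAD synthesis and salvage and the 17 other PARP family members and NAD hydrolases that passed the level filter, in EpiLC and Sirt1KO minus wild-type ESC and in Sirt1KO Otx2KD minus Sirt1KO; filled symbols passed the limma test and open ones did not. Zc3hav1 lies at -2.72 in EpiLC, -1.56 in Sirt1KO and 1.23 after the Otx2 knockdown.

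Of 18 other enzymes of the PARP family and NAD hydrolases, 17 passed the level filter. In EpiLC 7 rose and 8 fell, 15 of 17 called against 74.6% of all loci (median log2 -0.22, all loci -0.02). Cd38, a cell-surface NAD hydrolase, fell from 9.24 ± 0.585 to 2.27 ± 0.0380 FPKM (log2 -1.65 ± 0.07), and Zc3hav1, an antiviral RNA-binding PARP without catalytic activity, from 29.9 ± 1.10 to 3.70 ± 0.339. Of the tankyrases, which regulate Axin and telomeres, Tnks2 rose from 103.7 ± 2.10 to 144 ± 1.95 FPKM (log2 0.47 ± 0.03). Tnks, on chromosome 8, rose by 0.51 ± 0.05 on the log2 scale, but with chromosome medians removed the difference was 0.11 and not called (limma, adjusted p = 0.0572). In Sirt1KO 6 rose and 7 fell, 13 of 17 called against 65.0% of all loci (median log2 -0.15, all loci 0.01). Zc3hav1 fell to 9.48 ± 0.325 FPKM, and the mono-ADP-ribosyltransferases Parp12 from 4.41 ± 0.115 to 1.47 ± 0.456 and Parp14 from 1.27 ± 0.0933 to 0.243 ± 0.0767. Parp14 passed the level filter only through wild-type ESC, so the filter favoured its falls here and in EpiLC. Sarm1, an NAD hydrolase of axon degeneration on chromosome 11, fell from 3.95 ± 0.124 to 1.21 ± 0.0666 FPKM (log2 -1.16 ± 0.08, chromosome median -0.49).

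With the Otx2 knockdown, 10 of the 17 rose and 5 fell against Sirt1KO, 15 called in all where 62.6% of all loci were (median log2 0.34, all loci -0.01). Zc3hav1 rose to 23.5 ± 0.998 FPKM and Parp14 to 1.08 ± 0.142. Parp2, the DNA repair enzyme closest to Parp1, fell from 32.1 ± 1.61 to 18.3 ± 1.11 FPKM (log2 -0.78 ± 0.07), while Parp1 rose, as above. Tiparp, a mono-ADP-ribosyltransferase induced by the aryl hydrocarbon receptor, fell from 14.6 ± 0.261 to 7.88 ± 0.681 FPKM. Against wild-type ESC 4 rose and 6 fell, where 53.9% of all loci were called, Parp3 among those that rose (log2 0.70 ± 0.11) and Tiparp among those that fell (log2 -0.93 ± 0.06).

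The genes whose pattern over the 12 libraries was most like that of Sirt1 were named by Pearson's r of log2(FPKM + 1), among 8502 loci with a mean of at least 5 FPKM. They were Skil, a repressor of SMAD signalling (r = 0.997), the kinase Cdk17 (0.995), the chromatin reader Mbtd1 (0.994), the Wnt effector Tcf7 (0.991) and the ubiquitin ligase adaptor Spop (0.989). The 12 points fall into the same groups for each gene, so r mainly reflects the group means. Skil went from 31.2 FPKM in wild-type ESC to 46.8 in EpiLC, 14.5 in Sirt1KO, with 14.8 in Sirt1KO Otx2KD. Mbtd1, Tcf7 and Spop lie on chromosome 11. With chromosome medians removed, 2 of the 5 genes stayed among the 5 most like Sirt1.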

How the data were processed

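RNA of 12 libraries was analysed in 4 groups of 3, assigned by the sample titles. Per the submitters' processing notes, TopHat, Cufflinks and Cuffdiff were used with mm9; versions and how library sizes were set are not given in the sources used here. The deposited table gives the authors' FPKM for 27914 loci, of which 4778 have no gene name and were left out. These unnamed loci held 95.3% to 96.9% of the summed FPKM of a library. Coordinates are mm9, from the files.

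The 12320 named loci that reached 1 FPKM in 3 or more libraries were tested as log2(FPKM + 1) with limma 3.58.1 in R 4.3.3 (a mean per group, all 12 libraries, trend and robust, 8 residual degrees of freedom). Benjamini-Hochberg adjusted p under 0.05 over all loci made a call. The script was tested on simulated data. Named genes were the 10 members, Otx2, Nnt, the 5 loci most like Sirt1, and up to 4 called genes of each list per comparison by the largest t. The members and lists were chosen with earlier results of these data known. The Sirt7 locus is merged with Mafg, so sums cover 6 sirtuins. Older symbols matched 6 list genes. Alternatives were a pseudocount of 0.1, other filters (none, or FPKM of at least 5), median-of-ratios and quantile scaling, 2-group fits, a replicate block, unnamed loci, removed chromosome medians, limma without trend and robust, and leaving out each library.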

Additional observations from a re-analysis of the deposited data

How the results depend on the processing

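The replicate numbers of the labels did not pair the libraries (correlations of same-numbered deviations from -0.11 to 0.17 over the 4 comparisons, and not every library correlated best with its own number), and with the replicate block 9, 7, 5 and 6 members were called in EpiLC, Sirt1KO, Sirt1KO Otx2KD against Sirt1KO and against wild-type ESC, as without it. Of 636 recomputed fold changes of members (40 results), 605 kept direction and call, 16 lost the call, 10 gained it and 5 changed sign. The sign changes, all of differences that did not pass, were Sirt1 with the Otx2 knockdown under quantile normalization (-0.0272) and without single libraries (range -0.0124 to 0.0304), Nmnat1 in EpiLC without single libraries (-0.0447 to 0.272), and Sirt4 in Sirt1KO Otx2KD against wild-type ESC without single libraries (-0.0255 to 0.118). Leaving out single libraries gave 8 to 10, 5 to 8, 5 to 6 and 5 to 6 called members in these comparisons. With chromosome medians removed, Elavl1 in Sirt1KO (-0.140) and, in Sirt1KO Otx2KD against wild-type ESC, Trp53 (0.0117) and Ubtf (0.103) changed sign, and 2 of the 5 genes most like Sirt1 stayed. Under the filter of FPKM of at least 5, Sirt5 was not tested. No read counts are given, so the precision of low members such as Sirt5 and Nmnat1 cannot be set from depth.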

Other observations

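Known substrates of sirtuins were followed as a further list, of which 20 of 23 genes passed the level filter. The shares of all loci called were 74.6% in EpiLC, 65.0% for Sirt1KO, 62.6% for the Otx2 knockdown against Sirt1KO and 53.9% for it against wild-type ESC, and the counts of both lists here are to be read against them. In EpiLC 8 rose and 7 fell, 15 of 20 called (median log2 0.03, all loci -0.02). Mitochondrial superoxide dismutase, Sod2, a Sirt3 substrate, fell from 88.9 ± 2.10 to 23.4 ± 0.551 FPKM (SD, n = 3), and isocitrate dehydrogenase Idh2, another, from 125.5 ± 2.51 to 53.9 ± 1.20. The forkhead factor Foxo1 rose from 2.98 ± 0.293 to 14.9 ± 1.11 FPKM (log2 2.00 ± 0.08). In Sirt1KO 7 rose and 9 fell, 16 of 20 called (median log2 -0.09, all loci 0.01), with Sod2 at 65.4 ± 3.92 FPKM, the acyl-CoA dehydrogenase Acadl up from 7.54 ± 1.17 to 18.0 ± 1.12 and the complex I subunit Ndufa9 up by log2 0.47 ± 0.04. After the Otx2 knockdown 9 rose and 6 fell against Sirt1KO, 15 called in all (median log2 0.02, all loci -0.01): Sod2 rose to 104.0 ± 0.706 FPKM, Ndufa9 fell to 81.5 ± 1.38 and glucose-6-phosphate dehydrogenase, G6pdx, fell from 30.0 ± 0.711 to 20.9 ± 1.46. Against wild-type ESC 9 rose and 8 fell, 17 called in all, with the acetyl-CoA synthetase Acss1 at log2 -0.66 ± 0.07 and the ribosomal gene factor Ubtf, on chromosome 11, at log2 -0.30 ± 0.04 (log2 0.10 with chromosome medians removed).

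Trp53, which encodes p53, a well-known Sirt1 substrate, stood at 267 ± 8.80 FPKM in wild-type ESC, 152.5 ± 4.77 in EpiLC, 137.9 ± 2.62 in Sirt1KO, with 203 ± 3.62 in Sirt1KO Otx2KD. It lies on chromosome 11. Its log2 fold change from wild-type ESC was -0.81 ± 0.03, -0.95 ± 0.03 and -0.39 ± 0.03 in that order, where the chromosome medians were -0.46, -0.49 and -0.39. With chromosome medians removed, the last of these was log2 0.01. Trp53 rose by log2 0.56 ± 0.03 with the Otx2 knockdown against Sirt1KO, where the chromosome median was 0.07.

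Of 12 regulators of Sirt1, 11 passed the level filter, and 3 rose and 5 fell in EpiLC, 8 called in all (median log2 -0.02, all loci -0.02). Rps19bp1, an activator of Sirt1, fell there from 55.8 ± 0.151 to 31.6 ± 0.0860 FPKM and the kinase Dyrk3 from 40.7 ± 0.807 to 28.5 ± 1.26. In Sirt1KO 3 rose and 4 fell, 7 called in all (median log2 -0.05, all loci 0.01). The deubiquitinase Usp22, on chromosome 11, fell by 0.51 ± 0.04 on the log2 scale (chromosome median -0.49), and the RNA-binding protein Elavl1, on chromosome 8, rose by 0.32 ± 0.04 (chromosome median 0.46). With chromosome medians removed, these were log2 -0.02 for Usp22 (limma, adjusted p = 0.651) and log2 -0.14 for Elavl1 (limma, adjusted p = 0.00449). With the Otx2 knockdown 6 rose and 2 fell against Sirt1KO, 8 called in all (median log2 0.10, all loci -0.01), with Foxo3 up from 14.0 ± 1.67 to 20.7 ± 0.999 FPKM and the SUMO protease Senp1 down from 16.8 ± 0.409 to 13.2 ± 0.577. Against wild-type ESC 5 rose and 4 fell, 9 called in all (median log2 -0.10, all loci -0.00).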
